A study of Homo sapiens with 13 samples.

Results

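The 6 genes described here were chosen for a lower level in cells carrying mutant SRSF2 than in cells carrying the normal factor at both replicate numbers of the RNA-seq libraries, although the level of PRSS23 was nearly equal at replicate 1. They are CCNA1, CPT1A, PRSS23, MMP2, WFDC1 and BMF, 6 of the 58581 genes in the deposited count table, and all 6 passed the filter on low counts with at least 33 reads in every library. The cells were HEL, an established human erythroleukemia line grown in RPMI medium with fetal bovine serum, stably carrying a doxycycline-controlled SRSF2 construct. The construct was either wild type (WT) or held the P95H substitution, which recurs in myelodysplastic syndromes. RNA-seq after rRNA depletion covered 2 WT and 2 P95H samples given doxycycline at 1 µg/ml for 48 hours, and 1 P95H sample labelled uninduced, which was given none. RNA binding was measured by HITS-CLIP, in which RNA crosslinked to the protein and pulled down through a Flag tag is sequenced, in 4 samples of each genotype, with doxycycline at the same dose for 36 hours. The sources used here give neither whether each line was a clone or a pool nor what a shared replicate number stands for. The labels call numbered samples biological replicates without naming separate cultures, so p-values measure only the spread between these samples.

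The genes were chosen from these same libraries. They are 6 of the 8 largest falls among 40 genes called lower in P95H by a fit with a term for the replicate number, whose mean log2 CPM (counts scaled to the size of the library) was 1 or more and whose CPM was lower in P95H at both numbers. HBE1 and CXCL8, at -1.58 and -0.83 on the log2 scale, make up the 8. In that fit 43 of 22007 genes tested were called lower (0.195%). Fitted log2 differences of the chosen genes ran from -1.81 for CCNA1 to -0.79 for CPT1A, the smallest inside, and BMP6 at -0.77 and AQP1 at -0.74 came next outside. These values, and every P95H against WT value of the 6 genes below, describe the choice and carry no test. The other condition, a lower CPM in P95H at both numbers, was met by 6082 of the genes tested (27.6%).

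The products of these genes have unrelated tasks. CCNA1 encodes the A-type cyclin of the male germ line, also found in myeloid leukemias, and BMF a BH3-only protein that promotes apoptosis and binds dynein light chains. CPT1A is the carnitine palmitoyltransferase of the outer mitochondrial membrane that commits long-chain fatty acids to oxidation. MMP2 is gelatinase A, secreted as a proenzyme and activated at the cell surface by MMP14, PRSS23 is a secreted serine protease, and WFDC1 a secreted protein with a WAP domain, a fold common among protease inhibitors. SRSF2 is an SR protein that binds exonic RNA and guides exon inclusion, and the P95H change alters which sequences it prefers.

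The genes lay apart in the genome (GRCh38 coordinates of the count table). CCNA1 was on chromosome 13, 36431520 to 36442882, plus strand, and BMF on chromosome 15, 40087890 to 40108892, minus strand. Chromosome 11 held CPT1A at 68754620 to 68844410, minus strand, and PRSS23 at 86791059 to 86952910, plus strand. Chromosome 16 held MMP2 at 55389700 to 55506691 and WFDC1 at 84294646 to 84329851, both on the plus strand. No other gene of the table overlapped CCNA1 or CPT1A. Of the 7 genes overlapping PRSS23 none had more than 50 reads in a library, and those overlapping MMP2, WFDC1 or BMF had at most 12. How reads in an overlap were assigned is not given, so reads shared with a neighbour on either strand could not be counted.

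Promoters are shown to let the starts of genes that moved together be compared. RefSeq promoters (GRCh38.p14, 300 bases from 250 before to 50 after a start) were found for 4 of the 6 genes, and for PRSS23 and BMF, which have 2 each, the one nearest the start of the gene in the count table is printed. All are 5′ to 3′ on the strand of the gene, and capitals mark matches, on either strand, to any of 10 short motifs known from blood cell and core promoters. The Sp1 motif GGGCGG stood in 45.0% of the 35116 promoters of the table, the KLF motif CACCC in 59.9%, the NF-Y motif CCAAT in 34.6% and the ETS motif GGAAGT in 22.8%. The core element TATAAA was held by 11.5%, the GATA factor motif AGATAA by 10.3% and its variant form TGATAA by 7.53%. The E-box motif CACGTG was held by 7.26%, the AP-1 motif TGACTCA by 4.95% and the forkhead motif TGTTTAC by 3.42%.
CCNA1, chr13:36431705-36432004, plus strand: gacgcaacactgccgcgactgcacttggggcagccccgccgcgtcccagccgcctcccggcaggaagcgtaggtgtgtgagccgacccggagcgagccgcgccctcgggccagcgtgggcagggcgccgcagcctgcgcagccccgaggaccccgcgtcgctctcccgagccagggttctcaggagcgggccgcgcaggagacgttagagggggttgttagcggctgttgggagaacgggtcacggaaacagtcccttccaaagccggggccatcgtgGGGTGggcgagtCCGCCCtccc
CPT1A, chr11:68844228-68844527, minus strand: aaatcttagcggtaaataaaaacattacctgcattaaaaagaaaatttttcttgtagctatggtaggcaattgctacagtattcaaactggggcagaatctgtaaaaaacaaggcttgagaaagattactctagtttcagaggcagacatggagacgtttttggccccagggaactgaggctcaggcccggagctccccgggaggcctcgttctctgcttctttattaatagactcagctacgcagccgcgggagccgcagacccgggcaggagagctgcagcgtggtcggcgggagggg
PRSS23, chr11:86790821-86791120, plus strand: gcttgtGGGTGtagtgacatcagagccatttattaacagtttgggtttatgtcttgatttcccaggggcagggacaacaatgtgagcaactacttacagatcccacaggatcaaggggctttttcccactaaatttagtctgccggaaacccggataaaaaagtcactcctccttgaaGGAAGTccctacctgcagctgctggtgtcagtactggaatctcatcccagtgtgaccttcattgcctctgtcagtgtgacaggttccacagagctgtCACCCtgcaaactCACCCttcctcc
BMF, chr15:40108830-40109129, minus strand: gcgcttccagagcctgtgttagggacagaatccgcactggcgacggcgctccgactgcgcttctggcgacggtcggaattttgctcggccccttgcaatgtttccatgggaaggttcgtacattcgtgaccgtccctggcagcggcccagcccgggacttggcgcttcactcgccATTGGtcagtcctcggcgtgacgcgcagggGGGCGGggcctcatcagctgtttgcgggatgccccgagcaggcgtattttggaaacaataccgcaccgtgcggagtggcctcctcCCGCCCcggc

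The printed promoters differed in base composition. The CCNA1 promoter was 72.7% G and C with 35 CG steps and that of BMF 65.0% with 31, against medians of 58.7% and 14 over all promoters. CPT1A had 50.0% with 13 CG steps, and PRSS23 49.0% with 2. No motif was shared by all 4 printed windows. GGGCGG stood in those of CCNA1 and BMF, CACCC in those of CCNA1 and PRSS23, GGAAGT in that of PRSS23 and CCAAT in that of BMF. The CPT1A window held none of the 10. The other PRSS23 promoter, starting at 86800292, was unlike the printed one, with 79.3% G and C, 40 CG steps and 5 matches to GGGCGG, so PRSS23 shares that motif with CCNA1 and BMF if this start is taken. The other BMF promoter, starting at 40106917, had 50.3% and 1 CG step, with TGATAA and GGAAGT. In CCNA1 the matches to GGGCGG and CACCC lie after the start, and no search was made outside these windows.

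Read depth was 37414093 to 45005605 counts per library. SRSF2, whose reads could not be divided between construct and endogenous gene, was at 222 and 241 CPM in WT, 223 and 252 CPM in P95H and 285 CPM in the library labelled uninduced, so it was highest where no doxycycline was given and did not separate the genotypes (log2 difference 0.05, SE 0.11, edgeR adjusted p 0.9999). Mitochondrially encoded protein genes took 1.38% of counts in both replicate 1 libraries, against 4.50% and 4.30% in the WT and P95H replicate 2 libraries and 4.14% in the one labelled uninduced. Erythroid markers (14 genes) summed to between 1058 and 1457 CPM and megakaryocyte markers (10 genes) to between 1420 and 1966 CPM, with the platelet chemokine PF4 at or near 0 (0 to 0.0533 CPM). Fewer cells of a type and less RNA per cell cannot be told apart in these bulk libraries.

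CCNA1 was measured at 1.15 and 18.4 CPM in WT replicates 1 and 2, at 0.836 and 3.70 CPM in P95H replicates 1 and 2 and 2.11 CPM without doxycycline. WT replicate 2 stood alone at the top, and WT replicate 1 lay below P95H replicate 2, so the genotypes overlapped. P95H was below WT by 0.46 on the log2 scale between the replicate 1 libraries, from 52 and 33 reads, with a 95% interval from -1.13 to 0.20. Between the replicate 2 libraries the difference was -2.32 (-2.57 to -2.07), from 742 and 164 reads. Most of the fall thus lay in the second pair. Such intervals are exact binomial ones on the 2 counts and show how finely the counts fix a value that the choice of genes used. They are no test of the fall, and leave out variation between cultures.

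BMF stood at 3.09 and 9.55 CPM in WT, at 2.76 and 3.22 CPM in P95H and 2.05 CPM without doxycycline. WT replicate 2 was again alone, while the other 4 libraries lay within 2.05 to 3.22 CPM. The pairs gave -0.16 (-0.54 to 0.21) at replicate 1 and -1.57 (-1.85 to -1.29) at replicate 2. The fall in BMF therefore rested on a single high WT library.

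CPT1A was at 35.7 and 146.8 CPM in WT, at 25.8 and 69.2 CPM in P95H and 65.5 CPM without doxycycline. Its reads, 1017 to 5919 per library, made it the most precisely measured of the 6. P95H stood lower at both numbers, with log2 differences of -0.47 (-0.58 to -0.36) and -1.09 (-1.15 to -1.02), a WT level 1.38 and 2.12 times that of P95H.

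MMP2 was at 4.10 and 10.1 CPM in WT, at 2.00 and 5.05 CPM in P95H and 4.27 CPM without doxycycline. It was the member with nearly the same fall at both numbers, -1.04 (-1.43 to -0.65) and -1.01 (-1.25 to -0.77), so WT had 2.05 and 2.01 times the level of P95H. The genotypes still overlapped, since P95H replicate 2 exceeded WT replicate 1.

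PRSS23 was at 4.52 and 34.0 CPM in WT, at 4.46 and 11.7 CPM in P95H and 9.50 CPM without doxycycline. At replicate 1 the genotypes were level, with 205 and 176 reads and a log2 difference of -0.020 (-0.32 to 0.28). On the same scale 53.3% of 12861 genes averaging 1 or more in log2 CPM had a lower value there than PRSS23. Scaled to library totals without the TMM factors, its difference at replicate 1 turned to 0.022. PRSS23 hence met the condition of a lower level at both numbers with TMM scaling and not with library totals, and its fall lay in the replicate 2 pair, at -1.54 (-1.69 to -1.40).

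WFDC1 was at 2.01 and 7.64 CPM in WT, at 1.55 and 2.84 CPM in P95H and 2.19 CPM without doxycycline. The pairs gave -0.38 (-0.87 to 0.11) and -1.43 (-1.74 to -1.12). As with CCNA1, BMF and PRSS23, the interval of the first spanned 0.

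**Figure D1:**
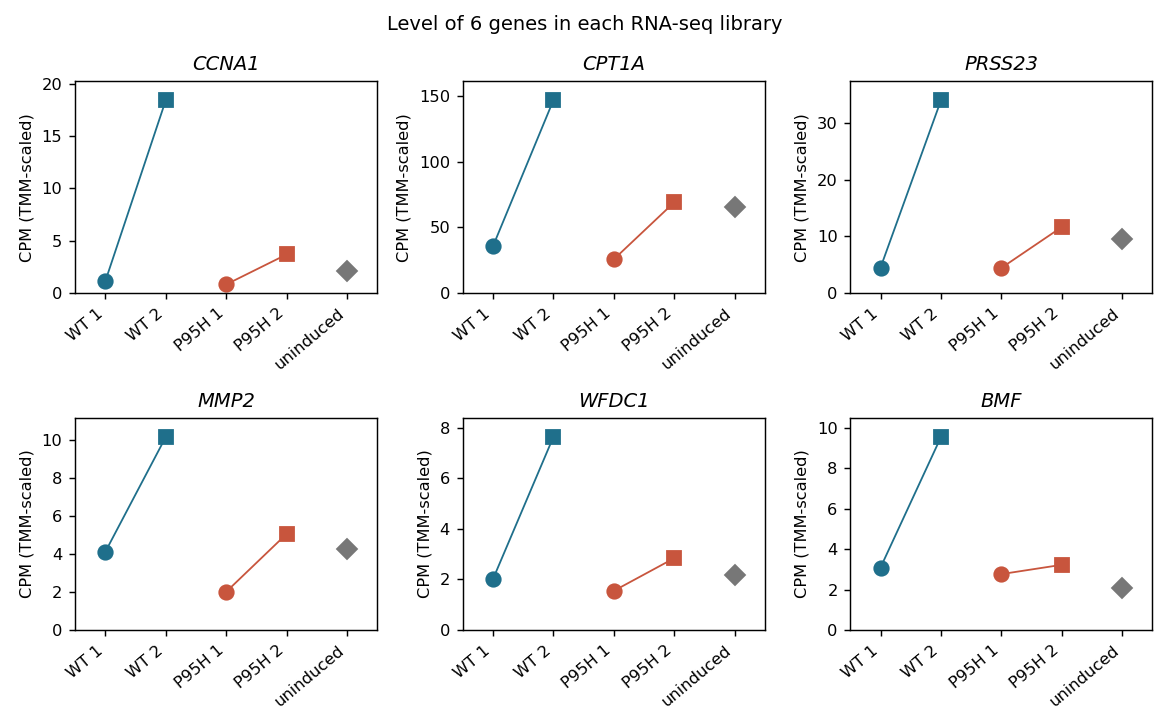
CPM (TMM-scaled, linear axes from 0) of each gene in the 2 WT, the 2 P95H and the uninduced library; lines join the replicates of a genotype. WT replicate 2 is the highest point in all 6 panels, for example 18.4 CPM for CCNA1 and 9.55 CPM for BMF.

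Across the 6 genes, the label of a fall in both pairs thus held to unequal degrees. At replicate 1 the values ran from -1.04 in MMP2 to -0.020 in PRSS23, and the counting interval spanned 0 in CCNA1, PRSS23, WFDC1 and BMF. The fall was larger at replicate 2 in 5 of the 6, the exception being MMP2. Among the 12861 genes, none fell more than CCNA1 at replicate 2, and 15 fell more than MMP2, while at replicate 1 the counts were 312 for CCNA1, 237 for CPT1A, 6850 for PRSS23, 7 for MMP2, 526 for WFDC1 and 2652 for BMF. In all 6 genes WT replicate 2 was the highest of the 5 libraries, which was so for 20.6% of genes tested and for 40.2% of those lower in P95H at both numbers. It was also the highest in HBE1 (14.5 CPM), CXCL8 (9.57 CPM), BMP6 (15.3 CPM) and AQP1 (34.2 CPM), ranked beside the 6 by size of fall. A high WT replicate 2 was thus not particular to the 6. Without WT replicate 2, the fit on genotype alone put CCNA1 at 0.99, PRSS23 at 0.84, CPT1A at 0.41 and WFDC1 at 0.13, all above 0, with BMF at -0.044 and MMP2 at -0.21. Leaving out that library also leaves the replicate 2 libraries with P95H alone.

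**Figure D2:**
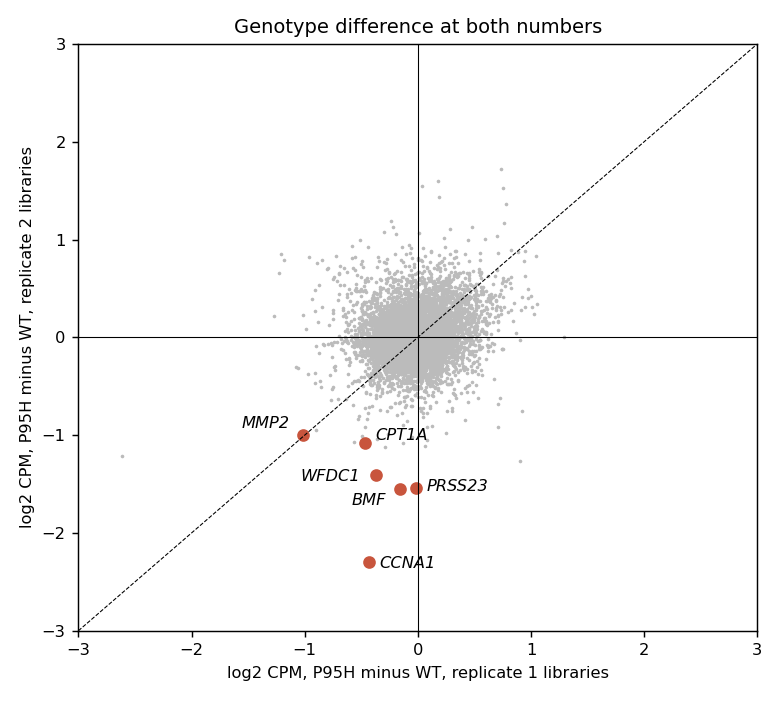
Difference in log2 CPM (P95H minus WT, prior count 2) between the replicate 1 libraries (horizontal) and between the replicate 2 libraries (vertical) for 12861 genes in grey, with the 6 genes in red; the dashed line marks equal differences. MMP2 lies on the line at about -1, and PRSS23 at about 0 and -1.54 lies on the vertical zero line.

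The fit on genotype alone, the comparison as the labels give it, called none of the 22007 genes (0%). Before adjustment, 227 genes had p below 0.05 by edgeR and 100 by DESeq2, which likewise called 0. Neither fit had a term for the replicate number, so differences between the numbers entered the spread within each genotype. The 0 calls therefore do not show that the genotypes were alike. In WT the replicates of CCNA1 averaged 9.77 ± 12.2 CPM (SD, n = 2) and those of CPT1A 91.2 ± 78.5 CPM (SD, n = 2), so the spread within WT was of the order of the mean. The corresponding P95H values were 2.27 ± 2.02 CPM and 47.5 ± 30.7 CPM (SD, n = 2 each). In each of the 6 genes the WT and P95H ranges overlapped.

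The difference between replicate numbers was set beside that between genotypes, in a fit with terms for both. This was the fit that ranked the genes, with the same libraries and the same estimates of spread. The number difference was not itself ranked, but it was not independent of the choice. A high WT replicate 2 library enlarges both the fall in P95H and the rise with the number, and that library was the highest in all 6. The same estimates of spread also decided which genes were called, so adjusted p-values of the 6 for the number can be too small. The residual of this fit rests on the gap between the falls at the 2 numbers, replicate 2 minus replicate 1. On the log2 scale that gap was -1.86 in CCNA1, -1.52 in PRSS23, -1.41 in BMF, -1.05 in WFDC1, -0.62 in CPT1A and 0.029 in MMP2. All 6 were higher in replicate 2 than in replicate 1 by edgeR's quasi-likelihood test, against 2275 of 22007 genes called higher in replicate 2 (10.3%, or 19.2% in either direction). Both replicate 2 libraries exceeded both replicate 1 libraries in each of the 6, as in 27.7% of all genes. HBE1, CXCL8, BMP6 and AQP1, ranked beside the 6 by size of fall, were called higher in replicate 2 too. Their log2 differences were 2.94, 0.62, 1.07 and 1.40, so the rise was not particular to the 6. CCNA1 was higher by a log2 difference of 3.30 (SE 0.25, edgeR adjusted p 4.26e-13), the third largest among the genes tested, and PRSS23 by 2.20 (SE 0.18, edgeR adjusted p 5.35e-12). CPT1A was higher by 1.74 (SE 0.10, edgeR adjusted p 7.20e-17), WFDC1 by 1.47 (SE 0.22, edgeR adjusted p 5.12e-06) and MMP2 by 1.32 (SE 0.17, edgeR adjusted p 4.07e-07). BMF had the smallest difference of the 6, 0.99 (SE 0.22, edgeR adjusted p 0.000837), and by DESeq2's Wald test it was not called, at 0.94 (DESeq2 adjusted p 0.473). DESeq2 called CCNA1 and PRSS23 with wider errors, at 3.09 (SE 0.84, DESeq2 adjusted p 0.00527) and 2.16 (SE 0.71, DESeq2 adjusted p 0.0297). With so few residual degrees of freedom, edgeR's SE draws on the spread of other genes as well as on that of the gene itself. In all 6 the number difference exceeded the genotype difference of the same fit in size, as it did in 67.7% of all genes tested. For BMF the 2 were close, 0.99 against -0.92 (SE 0.22 each). On genotype alone BMF was at -1.06, which is larger in size than its number difference. The mitochondrial share of counts moved with the number too (1.38% against 4.30% and 4.50%), and its part in these differences was not tested.

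Replicate 2 was the higher within each genotype. In WT, replicate 2 had 16.0 times the CPM of replicate 1 for CCNA1, 7.52 times for PRSS23, 4.11 times for CPT1A, 3.80 times for WFDC1, 3.09 times for BMF and 2.47 times for MMP2. Within P95H the same ratios were 4.42 for CCNA1, 2.62 for PRSS23, 2.68 for CPT1A, 1.84 for WFDC1, 1.17 for BMF and 2.52 for MMP2. The ratio was larger in WT in 5 of the 6, which restates the larger fall of P95H at replicate 2, and was not tested, since the interaction leaves no residual degrees of freedom. The difference was larger in WT in 56.3% of the genes called higher in replicate 2, and in 55.5% of the 885 of them that were lower in P95H at both numbers. In MMP2 the ratios of the genotypes were nearly equal, and in BMF that of P95H was near 1.

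**Figure D3:**
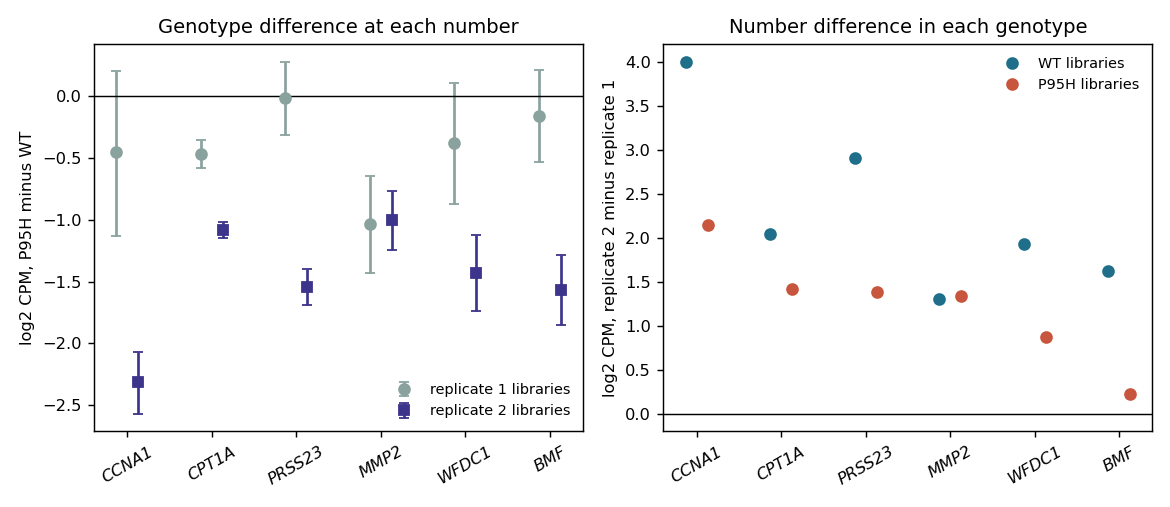
Left, log2 CPM of P95H minus WT at each replicate number, with 95% counting intervals; right, log2 CPM of replicate 2 minus replicate 1 in each genotype. At replicate 1 the intervals of CCNA1, PRSS23, WFDC1 and BMF cross 0, and on the right all 12 values are above 0, from 0.22 for BMF in P95H to 4.00 for CCNA1 in WT.

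The library labelled uninduced, which carries the P95H construct, lay between both replicate 1 and both replicate 2 libraries in 5 of the 6 genes. That placing held for 6.09% of genes tested and for 30.7% of those called higher in replicate 2. Of the genes ranked beside the 6, HBE1 and AQP1 had it too, at 4.27 and 12.7 CPM in that library, while CXCL8 and BMP6 did not. In order from high to low these 5 genes, CCNA1, CPT1A, PRSS23, MMP2 and WFDC1, all ran WT replicate 2, P95H replicate 2, uninduced, WT replicate 1, P95H replicate 1. Neighbours could lie close, as with CPT1A at 69.2 and 65.5 CPM in P95H replicate 2 and the library labelled uninduced, or MMP2 at 4.27 CPM there and 4.10 CPM in WT replicate 1. BMF differed, with its lowest level, 2.05 CPM, in the library labelled uninduced. By its mitochondrial share of 4.14% that library stood near the replicate 2 libraries instead.

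The mean of the WT and P95H groups was also set against the library labelled uninduced. That arm is 1 library, of P95H cells, so neither its spread nor a WT response to doxycycline was measured, and calls rest on the spread of the other groups. None of the 6 passed, and edgeR's quasi-likelihood test had 0 calls among 23970 genes (0%), although 1213 were below 0.05 before adjustment, while DESeq2 had 14 calls and 613 such genes. Log2 differences were 1.16 for CCNA1 (SE 1.39), 1.08 for BMF (SE 0.61), 0.57 for WFDC1 (SE 0.72), 0.39 for PRSS23 (SE 0.97), 0.23 for MMP2 (SE 0.61) and 0.0060 for CPT1A (SE 0.74), with edgeR adjusted p from 0.875 to 0.999. With a term for the number, the outcome followed where that library was placed. Among the replicate 2 libraries it gave all 6 higher in the induced libraries, CCNA1 by 2.02, and among the replicate 1 libraries CCNA1 at -1.27, CPT1A at -1.11 and PRSS23 at -1.09. The direction thus turned with the placing in 5 of the genes, while BMF was above 0 without the term and in both placings (1.08, 1.49 and 0.50).

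Genes with the pattern most like each member were sought among the 12861 genes, by the root mean square difference in log2 CPM centred over the 5 libraries. CPT1A had THBS1, a platelet granule protein, at 0.15, then the water channel AQP1 at 0.24 and the chaperone CLU at 0.25. MMP2 had THBS1 at 0.21, CLU at 0.22 and the alpha globin HBA1 at 0.23, whose reads can be split with its near-identical copy HBA2. WFDC1 was nearest to AQP1 at 0.13, then LACC1 at 0.17 and RGS6 at 0.25, and PRSS23 to CPT1A at 0.29, LACC1 at 0.37 and AQP1 at 0.38. BMF had SKIL, a repressor of SMAD signalling, at 0.23, the immediate-early gene JUN at 0.28 and UNC13A at 0.29. CCNA1 had the least close neighbours, all members here, PRSS23 at 0.51, CPT1A at 0.74 and WFDC1 at 0.78. THBS1, for example, was at 1630 and 5036 CPM in WT, 1138 and 2895 CPM in P95H and 2481 CPM in the library labelled uninduced, the order of CPT1A at a different level. With 5 libraries such likeness is a description of these samples.

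Related genes were taken from lists for the family or pathway of each member, the member itself left out. In P95H against WT, edgeR's fit on genotype alone called 0 genes in every list, 49.5% of all genes tested were negative, and the median log2 difference over all genes was 0.00205, and -0.00969 for replicate 2 against 1. Cyclins, their kinases and regulators (23 tested) had a median of -0.04 with 16 negative. CCNA2, the A-type cyclin of dividing somatic cells, was at 167.7 and 177.8 CPM in WT and 170.8 and 173.8 CPM in P95H, close to level where CCNA1 was not. In replicate 2 against 1, 5 of the 23 were higher and 2 lower by edgeR (10.3% of all genes were higher and 19.2% called either way), and by DESeq2 2 and 1. The inhibitor CDKN1A differed by 0.83 (SE 0.13), CCNE2 by 0.40 (SE 0.09) and CCND1 by -1.05 (SE 0.15) on the log2 scale.

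Genes of fatty acid import and oxidation (24 tested) had a median of -0.05 in P95H against WT, with 16 negative. CPT2, which acts after CPT1A on the inner membrane, was at 13.8 and 11.8 CPM in WT and 11.5 and 13.2 CPM in P95H. In replicate 2 against 1, 6 were higher and 5 lower, among them CPT1C, a brain-type relative of CPT1A (log2 difference 1.53, SE 0.35), the fatty acid receptor CD36 (1.32, SE 0.14) and ACSL4, which activates polyunsaturated fatty acids (-0.72, SE 0.08). CPT1C was barely expressed, at 0.405 to 1.26 CPM. DESeq2 called 4 higher and 3 lower. The 11 PPAR targets and regulators tested, a group to which CPT1A belongs in many tissues, had a median of -0.02 by genotype with 7 negative, and by number 0 were higher in replicate 2 and 4 lower, with PPARD at -0.74 (DESeq2 called 2 lower). Of 16 genes of the FOXO list, targets and the factors FOXO1 and FOXO3, 15 were negative by genotype (median -0.17, none past edgeR's test). By number 4 were higher in replicate 2, led by KLF2 at 1.24, and 2 lower, KLHL24 at -0.79 and CCNG2 at -0.46. KLF2 was likewise barely expressed, at 0.187 to 1.04 CPM. DESeq2 called 1 gene of the FOXO list higher and 1 lower.

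Among 16 tested members of the BCL2 family and dynein light chains, 13 were negative in P95H against WT, with a median of -0.06. DYNLL2, a light chain to which BMF binds, was at 114.4 and 138.4 CPM in WT and 115.1 and 126.5 CPM in P95H. In replicate 2 against 1, 2 were higher and 4 lower, among them BBC3, another BH3-only gene (log2 difference 0.63, SE 0.18), and the mitophagy receptor BNIP3 (-1.31, SE 0.10). DESeq2 called 0 of the 16 higher and 3 lower.

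Matrix metalloproteinases and their inhibitors (10 tested of 24) had a median of -0.03, with 6 negative. MMP14, the activator of pro-MMP2, was at 90.5 and 132.7 CPM in WT, at 67.5 and 98.0 CPM in P95H and 108.7 CPM without doxycycline. Like MMP2 it was lower in P95H at both numbers, with a log2 difference of -0.42 in the fit on genotype alone (SE 0.24, edgeR adjusted p 0.9999). The fit with a replicate term, which ranked the 6 genes, called it at the same -0.42 (edgeR adjusted p 0.00312), and it was higher in replicate 2 by 0.54 (SE 0.08). By number 2 of the 10 were higher in replicate 2 and 2 lower, the inhibitors TIMP3 at -0.42 and RECK at -0.59.

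Secreted serine proteases and their inhibitors (17 tested of 24) had a median of 0.04 by genotype with 8 negative, and by number 5 were higher in replicate 2 and 5 lower (3 and 2 by DESeq2). HTRA3 was at 0.0441 and 1.04 CPM in WT and 0 and 0.518 CPM in P95H, and the neutrophil granule proteases PRSS57 and CTSG were lower in replicate 2, at -1.36 and -1.40. CTSG was barely expressed, at 0.223 to 1.24 CPM. WFIKKN1, the single WAP-domain gene tested of 13, was at 0.04 by genotype. All 13 mitochondrially encoded protein genes were higher in replicate 2 (median 1.70), with a median of 0.01 by genotype.

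**Figure D4:**
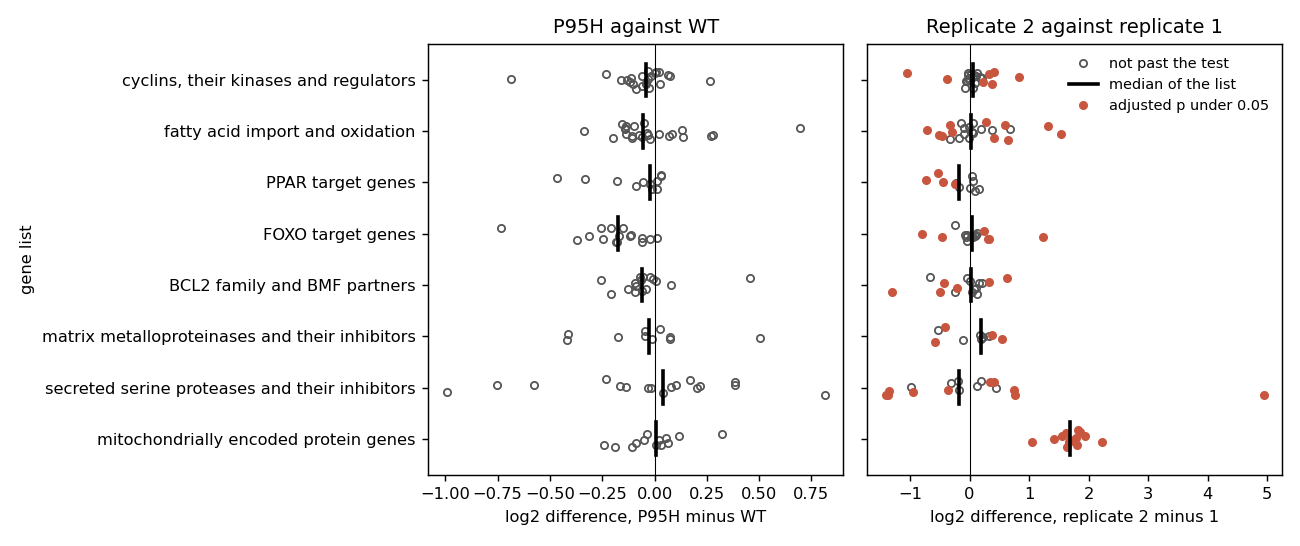
Log2 difference of each tested gene of 8 lists, in P95H against WT on genotype alone (left) and in replicate 2 against replicate 1 (right); filled points passed edgeR's test at an adjusted p under 0.05 and bars are list medians. No point is filled on the left, and all 13 mitochondrially encoded genes are filled on the right.

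MMP2 is abundant in fibroblasts, so markers of other cells were set beside the 6 genes. The 12 fibroblast markers summed to 21.4 to 34.1 CPM, most of it THY1 (13.3 to 22.6 CPM), with COL1A1 at 0.203 to 0.570 CPM and 3 of the 12 at or under 3 counts in every library. In WT replicate 2, where MMP2 was highest, the sum and THY1 were at their lowest, while PDGFRA (1.29 CPM, against at most 0.406 CPM elsewhere), COL1A1 and LUM (0.570 CPM each) were at their highest. The part of fibroblast RNA in the MMP2 values was not tested. Of 9 endothelial markers, summing to 437 to 670 CPM, PECAM1 led at 205 to 326 CPM, while CDH5, which defines the type, was at 0.0253 to 0.154 CPM. Monocyte and macrophage markers (8, with FCN1 at 0 throughout) summed to 11.5 to 17.3 CPM, lymphoid markers (9) to 6.35 to 8.67 CPM and epithelial markers (8, with EPCAM, KRT19, KRT5 and KRT14 at 0) to 31.5 to 40.8 CPM. Erythroid and megakaryocyte sums were, like the 6 genes, highest in WT replicate 2 (1457 and 1966 CPM) and, like 5 of them, lowest in P95H replicate 1 (1058 and 1420 CPM), and their part in the falls was not tested.

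Binding was looked up in the authors' deposited table of HITS-CLIP windows that differed between P95H and WT. Of its 8100 windows in 2384 genes, none was assigned to any of the 6 genes, and none overlapped them by position on either strand. The nearest window lay 52308 bases from BMF, in BUB1B, and 2085134 bases from MMP2, the farthest. The authors' deposited table holds no window above an adjusted p of 0.05, and each has a log2 change of at least 1 in size, so it does not tell whether SRSF2 bound these transcripts equally, or too little to be tested. Of genes tested by RNA-seq, 9.69% had a window. Among the 2939 with a mean CPM from that of WFDC1, the lowest of the 6, to that of PRSS23, the second highest, it was 6.67%, against 30.5% of the 3539 genes above the level of CPT1A.

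Relatives of the members did carry windows. The authors' deposited table had 14 windows in 7 of the 24 cyclin and regulator genes, 12 of them lower in P95H (77.7% of all its windows were lower). The 2 higher ones were in CCNB1 at 1.72 and CCND3 at 1.26 in the authors' deposited table. In CDK2, the kinase partner of A-type cyclins, all 4 windows were lower in P95H in the authors' deposited table, the one with the smallest adjusted p at a log2 change of -2.12 (mean 3.47 CPM in WT and 0.71 CPM in P95H). In WEE1, a kinase that restrains CDK activity, all 3 windows were lower in the authors' deposited table, with -2.76 at the smallest adjusted p. By the same deposited table of the authors, 1 fatty acid gene had a window, ACADVL at -4.39, and 1 BCL2 family gene, MCL1 at 1.49. In the authors' deposited table the PPAR target UCP2 had 1 window, at 4.01, and the FOXO list had 8 windows in 4 of its 17 genes. By the authors' deposited table TXNIP had 3, all higher in P95H, with 5.30 at the smallest adjusted p, and GADD45A had 1, at 1.70. SESN3 and CDKN1B, the latter also in the cyclin list, had 2 each in the authors' deposited table. All of these were lower in P95H, with -3.53 and -4.93 at the smallest adjusted p. None of the metalloproteinase, serine protease or WAP-domain genes had a window in the authors' deposited table.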

How the data were processed

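The deposited RNA-seq values are raw read counts by Ensembl gene. STAR 2.5.3a, TopHat2 2.0.14, edgeR and GRCh38.p3 stand without roles in the submitters' processing notes. No counting program or strand setting is given in the sources used here. For HITS-CLIP the authors deposited, for 8324 entries (8100 distinct windows), a log2 change, an adjusted p-value and a mean CPM for each genotype.

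Counts were fitted with edgeR 4.0.16 in R 4.3.3 after filterByExpr and TMM scaling (factors 0.958 to 1.04). Tests were two-sided, and a gene was called when its Benjamini-Hochberg adjusted p was below 0.05. The fit for P95H against WT had genotype alone, replicate 2 against 1 had a genotype term, and the uninduced comparison used all 5 libraries, the lone one being assumed to vary like the others. CPM carry the TMM scaling, and a prior count of 2 was added for log2 CPM. Alternatives were DESeq2 1.42.0, other filters, scaling and prior counts, a replicate term and leaving out libraries. Promoters were searched in Python 3.11.15.

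The 6 genes and all lists were chosen with earlier results of these data known. Genes named beside the 6 were SRSF2, the genes next to them in the ranking, up to 3 per list by size of change among those called, the top markers and the 3 most similar genes. CCNA2, CPT2, DYNLL2, the window genes and the markers near 0 were named for their role after their values were seen.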

Additional observations from a re-analysis of the deposited data

How the results depend on the processing

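Of 231 recomputed values, 195 were counted as kept. Differences kept their direction and, where tested, their side of the threshold, and counts stayed at 0 or within 1.5 times. The P95H against WT values of the 6 genes were judged on direction and size alone. Size counted as kept within the pooled SD of a gene's replicates, from 0.81 for BMF to 2.23 for CCNA1 in log2 CPM. That margin is wide, so CCNA1 at -3.54 and MMP2 at -0.21 counted as kept. Untested values for the number had a margin set by the gap between the genotypes. With the replicate block all 6 pass (edgeR adjusted p up to 0.0372), since that fit chose them. In P95H against WT, 15 genes were called without a filter on low counts (2 up, 13 down) and 84 with the replicate block (41 up, 43 down), which included 1 cyclin list gene, CDKN1A, and 1 metalloproteinase list gene, MMP14, against 0 in each list without it. Same-numbered libraries deviated from their group means together (correlation 0.474 across 23970 genes), which 2 pairs cannot tie to a shared culture or day. Leaving out each library gave 0 calls, and ranges of log2 differences of -3.54 to 0.99 for CCNA1, -1.82 to 0.41 for CPT1A, -2.11 to 0.84 for PRSS23, -1.83 to -0.21 for MMP2, -1.79 to 0.13 for WFDC1 and -1.66 to -0.044 for BMF, with the upper ends without WT replicate 2. At replicate 1, scaling without TMM turned PRSS23 to 0.022.

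For replicate 2 against 1, DESeq2 called 1455 genes against 4226 and ended the call of BMF (0.94). By list it had 3 calls against 7 for cyclins, 7 against 11 for fatty acids, 2 against 4 for PPAR, 2 against 6 for FOXO, 3 against 6 for BCL2 and 5 against 10 for serine proteases. Leaving out libraries leaves no residual degrees of freedom there, so no count was run. Values ran from 2.14 to 4.00 for CCNA1, 1.42 to 2.04 for CPT1A, 1.39 to 2.91 for PRSS23, 1.30 to 1.34 for MMP2, 0.88 to 1.93 for WFDC1 and 0.22 to 1.63 for BMF.

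Against the library labelled uninduced, DESeq2 called 14 genes, the unfiltered fit 208, and leaving out each library 0 to 3. The replicate block called 1341 with that library among the replicate 2 libraries and 4167 with it among the replicate 1 libraries. In the first placing CCNA1 stood at 2.02, CPT1A at 0.63, PRSS23 at 1.11, MMP2 at 0.74, WFDC1 at 1.12 and BMF at 1.49, all past edgeR's test. In the second CCNA1 was at -1.27, CPT1A at -1.11 and PRSS23 at -1.09, past the test, with MMP2 at -0.57 and WFDC1 at -0.34. Without WT replicate 2 the values were -0.37 for CCNA1, -0.66 for CPT1A, -0.64 for PRSS23, -0.15 for MMP2 and -0.047 for WFDC1, and without P95H replicate 2 they were -0.44 for CPT1A, -0.037 for PRSS23 and -0.18 for MMP2. Over leave-outs they reached 1.62 for CCNA1, 0.35 for CPT1A, 0.81 for PRSS23, 0.51 for MMP2 and 0.91 for WFDC1, and BMF ran from 0.58 to 1.38. The cause was not tested in any of these.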
